A study of Mus musculus with 244 samples.

Results

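Among the somatic cells of the series, 55 held at least 10 read counts of Ooep, a transcript of oocytes, and are called carrier cells here. They were chosen by that count alone, so the Ooep levels given for them are a description. They were set against the 99 somatic cells with an Ooep count of 0 (Ooep-0 cells), and the remaining 31, with counts above 0 and under 10, were described separately. The series holds 59 oocytes beside these somatic cells, all picked by hand from follicles of wild-type CD-1 mice at postnatal day 6. Follicles were sorted by eye into the primordial stage, the stage transitioning to primary, the primary stage and the secondary stage, and every group used here shares that strain and age. Ovaries were pooled, no treatment was given, and no animal or collection is named for any cell, so the cells of a class within a stage count as 1 sample and no difference below carries a p-value. Libraries were made with SMART-Seq2, a full-length method that adds no molecular identifiers, on 6 library plates.

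The ovarian follicle is an oocyte enclosed by somatic cells, which are flat pregranulosa cells in primordial follicles and cuboidal, dividing granulosa cells once growth has begun. Ooep encodes a KH-domain protein of the subcortical maternal complex, an assembly under the oocyte membrane that the early embryo needs for its first divisions. Oas1d and Khdc1b belong to gene families with members used mainly in oocytes, and Sohlh1 is a helix-loop-helix transcription factor of early oocytes. Oocytes and their somatic neighbours touch through thin projections and gap junctions, and the small somatic cells hold far less RNA than a growing oocyte.

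The promoters of Ooep and of other transcripts followed in the carrier cells are shown because these genes are read together in oocytes. Each sequence is the 250 bases before the RefSeq start of the gene in build GRCm38.p6, with E-boxes (CANNTG, the site class bound by helix-loop-helix factors such as SOHLH1) and the NOBOX element (TAATTG, either strand) in capitals. The windows are chr9:78378589-78378838 on the minus strand for Ooep, chr1:21383306-21383555 on the plus strand for Khdc1b, chr2:25847249-25847498 on the minus strand for Sohlh1 and chrX:6320725-6320974 on the minus strand for Bmp15.
Ooep: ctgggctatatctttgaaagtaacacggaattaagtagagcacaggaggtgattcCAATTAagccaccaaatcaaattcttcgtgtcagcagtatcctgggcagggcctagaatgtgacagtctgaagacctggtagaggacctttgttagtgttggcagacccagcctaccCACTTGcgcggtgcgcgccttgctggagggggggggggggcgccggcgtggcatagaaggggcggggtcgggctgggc
Khdc1b: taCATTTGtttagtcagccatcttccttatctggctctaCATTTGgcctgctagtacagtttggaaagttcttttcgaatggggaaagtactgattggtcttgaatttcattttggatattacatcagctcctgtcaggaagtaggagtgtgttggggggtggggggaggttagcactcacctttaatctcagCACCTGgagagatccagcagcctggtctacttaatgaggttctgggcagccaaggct
Sohlh1: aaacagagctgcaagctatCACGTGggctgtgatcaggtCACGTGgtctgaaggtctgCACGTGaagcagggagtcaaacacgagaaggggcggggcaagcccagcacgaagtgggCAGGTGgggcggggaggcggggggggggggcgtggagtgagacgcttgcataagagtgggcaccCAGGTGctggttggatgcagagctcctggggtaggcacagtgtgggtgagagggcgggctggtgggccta
Bmp15: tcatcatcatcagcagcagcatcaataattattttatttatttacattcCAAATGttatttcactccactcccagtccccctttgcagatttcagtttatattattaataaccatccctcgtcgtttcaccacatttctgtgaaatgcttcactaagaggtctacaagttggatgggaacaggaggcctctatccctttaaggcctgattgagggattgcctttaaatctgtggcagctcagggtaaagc
Sohlh1 held 5 E-boxes, Khdc1b 3, and Ooep and Bmp15 1 each. Of the 4 windows, Ooep's alone held the NOBOX element as written above, 1 time, and no other sequence was searched as a NOBOX site. Of 27025 promoters of that length, 66% held an E-box and 7.34% the NOBOX element, so an E-box match in itself is common.

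Total counts over the 13266 genes listed on every plate ran from 2485 to 205315 in somatic cells (median 29205) and from 1223 to 489780 in oocytes (median 46686). All levels are counts scaled to 1000000 by those totals (CPM), and intervals on ratios cover counting error only. No 2 cells held identical values, and the highest correlation between any pair was 0.919. The authors had already removed somatic cells more than 2 SD high for a module of oocyte genes, so the highest carrier levels may be cut off in these data. The class rule is set on counts, so depth bears on it. The median total was 44984 in carriers and 29205 in Ooep-0 cells over all stages. By stage it was 26694 against 21418 (primordial), 79379 against 41447 (primary) and 23690 against 19964 (secondary), and the other way round at the transitioning stage (53535 against 76839). On plate 1 of that stage it was higher in carriers (75396 against 15009).

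Granulosa markers had reads in most carrier cells. Inha, the inhibin alpha subunit of granulosa cells, had reads in 22 of 22 primordial, 23 of 23 transitioning, 4 of 4 primary and 6 of 6 secondary carriers. Foxl2, a granulosa transcription factor, had reads in 13 of 22, 21 of 23, 4 of 4 and 5 of 6 carriers in the same order. Amh, the hormone of growing granulosa cells, had reads in 9 of 22, 21 of 23, 4 of 4 and 6 of 6. Pooled Inha was at 7171, 30519, 39612 and 46671 CPM in carriers by stage and at 84.5, 7.31, 19.8 and 100.0 CPM in oocytes. Pooled Foxl2 was at 365 CPM in primordial carriers and 1385 CPM in the Ooep-0 cells of that stage. The authors' granulosa module was lower in carriers than in Ooep-0 cells of the primordial (median 0.109 against 0.290), transitioning (0.218 against 0.609) and secondary stage (0.190 against 0.387), and 0.606 against 0.506 at the primary stage. Within each transitioning plate it was higher in carriers instead. It was 0.276 against 0.212 on plate 1, 0.206 against 0.126 on plate 3 and 0.782 against 0.747 on plate 4. It stayed lower in carriers on primordial plate 1 (0.124 against 0.290) and secondary plate 6 (0.084 against 0.250).

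Carrier cells made up very different shares of the 4 stages. There were 22 carriers of 40 primordial somatic cells, 23 of 47 transitioning, 4 of 56 primary and 6 of 42 secondary. Ooep counts in the carriers ran from 10 to 338 with a median of 35, or from 62 to 6161 CPM with a median of 1078. In oocytes the pooled Ooep level was 18659 CPM at the primordial and 22322 CPM at the transitioning stage, and lower at 6419 CPM at the primary and 3938 CPM at the secondary stage. Carriers therefore held 5.95% (95% interval 5.57 to 6.36) of the oocyte level at the primordial stage and 6.15% (5.87 to 6.43) at the transitioning stage. The share was 12.4% (10.8 to 14.2) at the primary and 17.1% (13.9 to 20.8) at the secondary stage, where the oocyte level was lower. The intervals cover counting error only, and plates differed. By plate the share was 6.52% and 5.72% (primordial plates 1 and 5) and ran from 0.557% to 10.2% (transitioning plates 4 and 1). It was 27.2% and 2.80% (primary plates 1 and 2) and 12.6% and 21.9% (secondary plates 5 and 6). Of the 4 primary carriers, 1 had 2112 CPM of Ooep and the others 468.8 CPM or less. The rise over stages therefore cannot be told apart from plates and single cells.

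Library plate went with carrier status. On plate 5 all 21 primordial somatic cells held Ooep, 15 of them as carriers and 6 with 4 to 9 counts, while the 19 primary somatic cells of the same plate all had a count of 0. On plate 1 the primordial cells split into 7 carriers and 10 Ooep-0 cells. On plate 3 the transitioning cells were 17 carriers and 4 Ooep-0 cells, and on plate 4 they were 2 and 12. The pooled primordial comparison therefore sets carriers that were mostly from plate 5 against Ooep-0 cells that were all from plate 1, and there plate and carrier status cannot be told apart. The pooled transitioning comparison likewise sets carriers mostly from plate 3 against Ooep-0 cells mostly from plate 4. Both classes had 3 or more cells on the same plate in only 4 cases, primordial plate 1, transitioning plates 1 and 3 and secondary plate 6. The oocytes used for reference were spread over plates in another way. Of 13 primordial oocytes, 5 were on plate 1 and 1 on plate 5. Of 19 transitioning oocytes, 15 were on plate 4 and 0 on plate 3. Percents of the oocyte level for carriers of plates 3 and 5 therefore set cells of different plates against each other.

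The threshold of 10 counts cut through a continuous range. The 7 carriers with 10 to 12 Ooep counts had 0.187% to 8.47% of their counts on other oocyte transcripts, with a median of 1.10%. The 4 cells with 7 to 9 counts had 0.303% to 1.75%, with a median of 1.29%. A primordial carrier of plate 5 with 10 Ooep counts among 161324 (62 CPM) sat inside the threshold, and a primordial cell of the same plate with 8 counts among 7198 (1111 CPM) sat outside it.

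**Figure D1:**
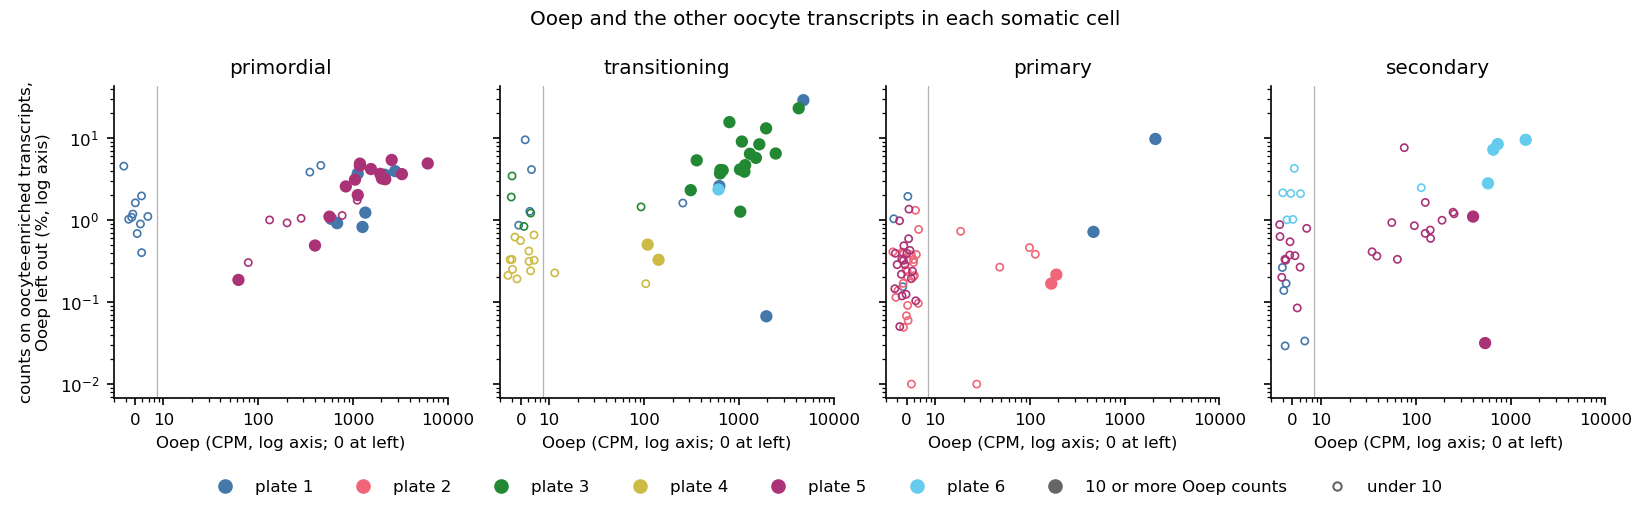
Each point is 1 somatic cell, with its Ooep level in CPM (log axis, cells at 0 spread at the left) against the percent of its counts on oocyte-enriched transcripts other than Ooep (log axis, values under the lowest tick drawn on it), by stage and coloured by library plate. Carriers are filled. Carriers of transitioning plate 3 reached 23.1%, while carriers of plates 2 and 4 lay among the Ooep-0 cells.

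Oocyte-enriched transcripts were set, for each stage, as those with at least 200 CPM in its oocytes, reads in at least 75% of them, and at least 50 times the level in Ooep-0 somatic cells of the other stages, with Ooep left out. This gave 61 transcripts for the primordial, 72 for the transitioning, 58 for the primary and 66 for the secondary stage. Of these, 38, 50, 39 and 47 had gene names, and 23, 22, 19 and 19 were named only by a genomic clone. Clone-named transcripts took 39% to 48.8% of all oocyte counts, and 90.3% to 93.4% of their values above 0 were not whole numbers, so reads shared with other copies are likely among them and their levels are uncertain. They are therefore given apart from the gene-named ones.

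Somatic cells with Ooep mostly held other oocyte transcripts too. Over all stages, oocyte-enriched transcripts took 0.0316% to 29% of a carrier's counts with a median of 3.67%, against a median of 0.375% in Ooep-0 cells (up to 9.54%) and 0.925% in cells with 1 to 9 Ooep counts (up to 7.65%). These classes differ in stage and plate. Where both had 3 or more cells on a plate, the medians were 1.23% against 1.10% on primordial plate 1 and 2.60% against 2.71% on transitioning plate 1. They were 5.36% against 1.57% on transitioning plate 3 and 7.85% against 2.11% on secondary plate 6. A carrier had reads from 1 to 29 gene-named oocyte-enriched transcripts (median 13), and an Ooep-0 cell from 0 to 13 (median 3). With every cell thinned to 12000 counts, which left out 2 carriers and 11 Ooep-0 cells, the medians were 12 and 2. The ranges of the classes overlapped throughout. For scale, the same share in oocytes had medians from 28.2% (primordial) to 60.3% (secondary).

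**Figure D2:**
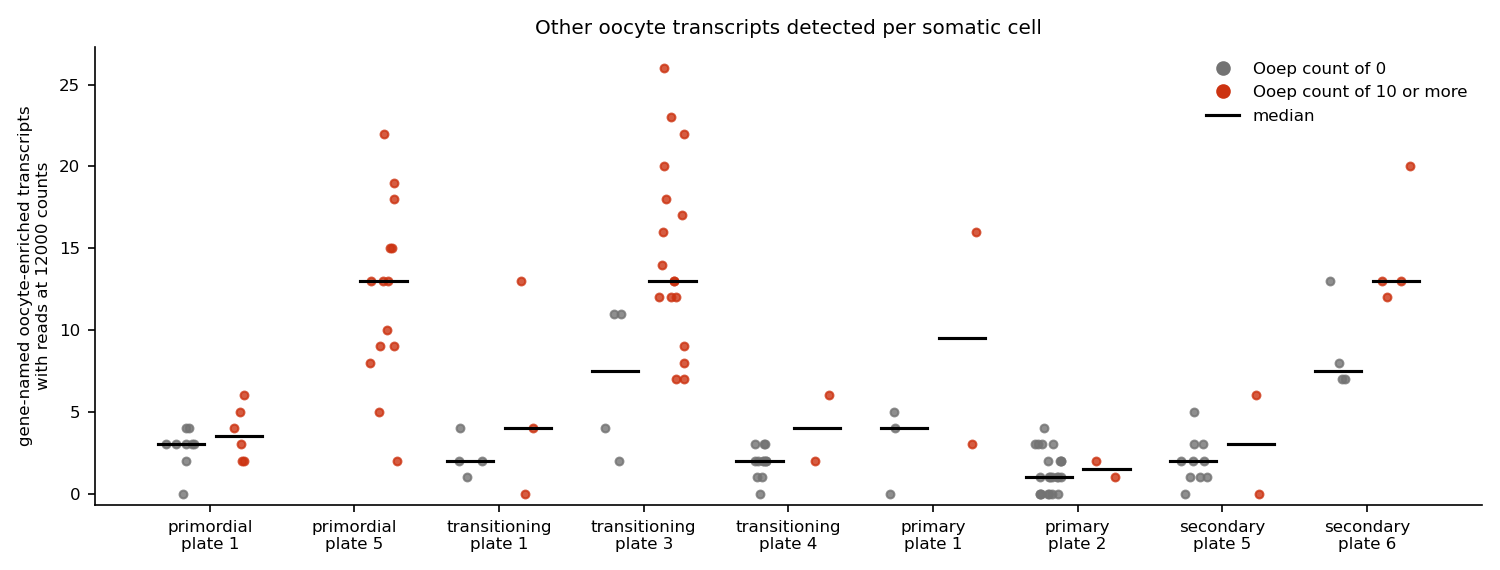
Each point is 1 somatic cell, with the number of gene-named oocyte-enriched transcripts that had reads after thinning to 12000 counts, by stage and library plate (Ooep-0 cells grey, carriers red, bar at the median). Carriers of primordial plate 5, transitioning plate 3 and secondary plate 6 had a median of 13, and carriers of primordial plate 1 a median of 3.5 beside 3 in its Ooep-0 cells.

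Primordial carriers of plate 5 held transcripts of the early oocyte. Khdc1b had reads in 15 of 15 of them (41.3, 648 and 3961 CPM as lowest, median and highest), and Oas1d in 14 of 15 (0, 1812 and 3431 CPM). Sohlh1 had reads in 14 of 15 (0, 543 and 2550 CPM). Each of these therefore had reads in nearly every one of the carriers. Of the 6 primordial cells of this plate with 4 to 9 Ooep counts, 3 had reads of Khdc1b, 4 of Oas1d and 4 of Sohlh1. Relative to primordial oocytes, the carriers' pooled levels were 7.94% for Khdc1b, 21.1% for Oas1d and 40.2% for Sohlh1, beside 5.72% for Ooep itself. Sohlh2, the partner of SOHLH1, was at 141.6% with reads in 9 of 15 cells, Plcg2, a phospholipase, at 65.2% (8 cells) and Crabp1, a retinoic acid binding protein, at 64.3% (8 cells). Dazl, an RNA-binding protein of germ cells, was at 8.15% (8 cells) and Bmp15, an oocyte growth factor, at 4.89% (7 cells).

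Other abundant oocyte transcripts stood low in the same cells. Dppa5a, a KH-domain gene next to Ooep on chromosome 9, had reads in 13 of 15 cells but at only 1.18% of its oocyte level. Bcl2l10, a BCL2 family gene, was at 0.612%, Fbxw24, an F-box gene, at 0.539% and Mos, the kinase that holds the mature egg in meiosis, at 0.479%. Of the 38 gene-named transcripts all had at least some reads in these 15 carriers, with a median of 4.07% and quartiles of 1.47% and 20.0% of the oocyte level. No Ooep-0 cell of this stage was on plate 5, so these are levels and not a comparison. Only 1 of the 13 primordial oocytes was on that plate, so the percents rest mostly on oocytes of other plates.

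Primordial carriers of plate 1 did not show this set. Khdc1b had reads in 0 of 7 carriers and 2 of 10 Ooep-0 cells, Bmp15 in 0 and 1, and Dazl in 0 and 1. Oas1d was at 303 CPM in carriers (2 of 7 cells) and 329 CPM in Ooep-0 cells (3 of 10), a log2 ratio of -0.12 with an interval from -0.60 to 0.37 that covers 0. With 1 cell left out at a time that ratio ran from -1.87 to 1.15. Sohlh1 was at 823 against 298 CPM (log2 ratio 1.47, 1.06 to 1.89), with reads in 3 of 7 and 4 of 10 cells, and 1 carrier at 5083 CPM held 80.7% of the carriers' counts. Without it the carriers were at 182.4 CPM and the ratio turned to -0.71. Of the 61 enriched transcripts, 29 had no ratio, with 3 counts or fewer in both classes. Of the other 32, 6 were higher by a log2 ratio of 1 or more (18.8%) and 5 lower, where 32.4% of all genes listed on every plate with over 3 counts on a side were higher. With 1 cell left out at a time 3 to 10 were higher, the lowest number without the carrier rich in Sohlh1. Their median level was 0% of the oocyte level in carriers and 0.560% in Ooep-0 cells.

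Oocyte genes listed on plate 1 but not on every plate, looked at after values were seen, had reads in Ooep-0 cells too, and their ratios rested on single cells. Tle6, which encodes a member of the subcortical maternal complex, was at 283 CPM in carriers and 1014 CPM in Ooep-0 cells (log2 ratio -1.84, -2.26 to -1.44), but at 310 CPM in Ooep-0 cells without 1 cell (-0.13). Oas1c was at 258 and 2698 CPM (-3.39, -3.79 to -3.00), and the ratio turned to 0.62 without the same cell, which held 94.9% of the Ooep-0 counts. Nlrp14, an oocyte NLRP gene, was at 132.9 and 336 CPM (-1.34, -1.99 to -0.72), and turned to 2.86 without another Ooep-0 cell. Dppa3, which guards methylation of the maternal genome, was at 742 and 738 CPM, 4.52% and 4.50% of the oocyte level, and its ratio ran from -1.27 to 1.33 with 1 cell left out. Tle6, Oas1c and Nlrp14 each had reads in 3 of 10 Ooep-0 cells and Dppa3 in 5 of 10.

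Transitioning carriers of plate 3 held Dppa5a, Fbxw24 and Bcl2l10 in most cells. These transcripts were among the 10 largest ratios of the pooled transitioning stage, most of whose carriers were these cells. High values here follow from that choice and are a description. Dppa5a had reads in 17 of 17 carriers (200, 1892 and 8128 CPM as lowest, median and highest), and the 4 Ooep-0 cells held 0, 228.4, 355 and 818 CPM. Fbxw24 had reads in 14 of 17 (0, 1564 and 6588 CPM), and the Ooep-0 cells held 0, 0, 0 and 156.3 CPM. Bcl2l10 had reads in 14 of 17 (0, 505 and 2473 CPM), and the Ooep-0 cells held 0, 67.3, 276 and 1105 CPM. The carriers' median was above all 4 Ooep-0 cells for Dppa5a and Fbxw24 and below 1 of them for Bcl2l10, and the ranges overlapped for each transcript. As a share of the oocyte level, the pooled values were 27.7% against 2.83% for Dppa5a, 65.6% against 1.39% for Fbxw24 and 36.8% against 9.24% for Bcl2l10. No oocyte of this stage was on plate 3, so these shares rest on oocytes of other plates.

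Of the transcripts high on primordial plate 5, Oas1d and Sohlh1 were at a lower share of the oocyte level here, and Khdc1b at a similar one. Oas1d had reads in 11 of 17 carriers and was at 9.25% of the oocyte level against 3.50% in Ooep-0 cells (log2 ratio 1.40, 1.05 to 1.77), with a ratio of 0.55 without the carrier that held 52.2% of its counts. Khdc1b had reads in 14 of 17 carriers and was at 8.02% against 4.63% (0.79, 0.54 to 1.05), below the log2 ratio of 1 used to count a transcript as higher, and 1 Ooep-0 cell at 1878 CPM held 96.6% of the Ooep-0 counts (5.15 without it). Sohlh1 was at 1.56% with reads in 3 of 17 carriers, and Sohlh2 had none. Fbxw26 was at 75.9%, Fbxw18 at 27.4%, Mos at 19.8% and Bmp15 at 18.9%, while Patl2, a repressor of oocyte translation, was at 73.8% from 4 of 17 cells.

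Across plate 3, 51 of the 72 enriched transcripts (70.8%, or 76.1% of the 67 with a ratio) were higher in carriers and 3 lower, against 35.2% of all genes listed on every plate with over 3 counts on a side that were higher. With 1 cell left out at a time 46 to 57 were higher. Of the 72, 31 had 0 counts in the Ooep-0 cells and could have a ratio only through the carriers. The members' median was 14.6% of the oocyte level against 1.23% in Ooep-0 cells. Genes of the subcortical maternal complex are not listed on every plate, and those listed on plate 3 were looked at after values were seen. Nlrp5, the partner of OOEP in that complex, had reads in 17 of 17 carriers (201.9, 879 and 5139 CPM), where the Ooep-0 cells held 0, 35.6, 72.1 and 381 CPM (log2 ratio 3.84, 3.37 to 4.36). Zbed3, another member, had reads in all cells of both classes, with 1518 to 28858 CPM in carriers and 793 to 5703 CPM in Ooep-0 cells (1.36, 1.25 to 1.47, and 0.90 to 1.95 with 1 cell left out). Zfp57, a guardian of imprints, had reads in 12 of 17 carriers and 1 of 4 Ooep-0 cells (624 against 4.05 CPM pooled). Zar1, a factor that stores maternal RNA, was at 1515 and 1531 CPM (-0.02, -0.18 to 0.15), with reads in 17 of 17 carriers and 2 of 4 Ooep-0 cells. Of its Ooep-0 counts 84.2% came from 1 cell, without which the ratio was 2.11.

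On transitioning plate 1 the comparison turned on 1 cell. The 3 carriers held 623, 1954 and 4806 CPM of Ooep, and the cell at 4806 CPM had 29% of its counts on enriched transcripts, the highest share of any somatic cell. It held 8735 CPM of Fbxw24, 6166 CPM of Oas1d and 4613 CPM of Bcl2l10, and the other 2 carriers held none of these. The carrier at 1954 CPM of Ooep had reads of only 1 gene-named enriched transcript and a share of 0.0671%. Depth differed between the classes, with totals of 62002 to 100800 in the carriers and 12638 to 39781 in the Ooep-0 cells. In all, 21 of 72 enriched transcripts were higher and 3 lower, and 37 had no ratio. Of the 35 with a ratio 60% were higher, against 42% of all genes listed on every plate with over 3 counts on a side. Of the 72, 49 had 0 counts in the Ooep-0 cells and could have a ratio only through the carriers. With all genes of that plate taken in, 22 of 73 were higher and 37 had no ratio, where 48.7% of all genes with over 3 counts on a side were higher. Without the carrier at 4806 CPM of Ooep 2 were higher and 19 lower, and with any other cell left out 15 to 29 were higher. Tle6 was at 1343 against 9377 CPM (log2 ratio -2.80, -3.00 to -2.61), from 1 of 3 carriers and 3 of 4 Ooep-0 cells, and 89% of the Ooep-0 counts came from 1 cell (-0.57 without it). The 2 carriers of plate 4 had shares of 0.328% and 0.503%, within the 0.192% to 0.659% of the 12 Ooep-0 cells of that plate.

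Secondary carriers of plate 6 held Fbxw24, Khdc1b and Dppa5a in every cell. Fbxw24 was at 848, 1133, 1381 and 3077 CPM in the 4 carriers, and at 0 to 2307 CPM (median 51.1) in the 6 Ooep-0 cells. Khdc1b was at 886, 997, 1184 and 2047 CPM, against 0 to 970 CPM (median 82.5). Dppa5a was at 266, 349, 1250 and 1399 CPM, against 0 to 1210 CPM (median 0). The ranges of the classes overlapped for each. With 1 cell left out at a time the log2 ratio ran from 0.96 to 3.25 for Fbxw24, 1.92 to 4.46 for Khdc1b and 0.85 to 3.75 for Dppa5a. The pooled shares of the oocyte level were 43.7% against 14.8% for Fbxw24, 8.17% against 1.68% for Khdc1b and 21.2% against 8.37% for Dppa5a.

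Among genes listed on plate 6 and looked at after values were seen, the egg coat gene Zp3 was at 3331, 4756, 6826 and 10131 CPM in carriers and 0 to 4136 CPM in Ooep-0 cells (log2 ratio 1.86, 1.60 to 2.13). Zp2, of the same coat, was at 979 to 5000 CPM against 0 to 4397 CPM (1.42, 1.09 to 1.75). Gdf9, an oocyte growth factor, had a smaller ratio (0.95, 0.66 to 1.25) and reads in 4 of 4 carriers and 6 of 6 Ooep-0 cells. Both classes therefore carried egg coat and growth factor transcripts on this plate.

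Some oocyte transcripts had ratios below 0 on plate 6, from few counts. Bmp15 was at 64.4 against 453 CPM (log2 ratio -2.81, -4.51 to -1.48), from 5 counts in 2 of 4 carriers and 42 counts in 2 of 6 Ooep-0 cells (-1.78 without the richer of these). The carriers' level was 0.287% of an oocyte level of 22464 CPM. Mos was at -1.55 (-3.15 to -0.19) from 6 counts in 1 carrier and 21 in 3 Ooep-0 cells, and at -0.61 without 1 of these. Taf4b, an oocyte subunit of the general transcription machinery, was at -2.44 (-3.17 to -1.77), and at -1.57 or below with any 1 cell left out. In all, 34 of 66 enriched transcripts (51.5%, or 73.9% of the 46 with a ratio) were higher in carriers and 7 lower, against 28.5% of all genes listed on every plate with over 3 counts on a side that were higher. With 1 cell left out at a time 28 to 38 were higher. Of the 66, 26 had 0 counts in the Ooep-0 cells and could have a ratio only through the carriers. The median was 9.55% of the oocyte level against 2.56%. The 2 secondary carriers of plate 5 had shares of 0.0316% and 1.10%.

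At the primary stage 1 of 4 carriers held nearly all of the other oocyte transcripts. That cell, on plate 1, had 2112 CPM of Ooep and a share of 9.77%, with 4199 CPM of Dppa5a, 3549 CPM of Fbxw24, 1854 CPM of Khdc1b, 1314 CPM of Bmp15 and 994 CPM of Oas1d. The other carriers had shares of 0.168%, 0.216% and 0.719%. With all 4 cells pooled, 36 of 58 enriched transcripts (62.1%, or 85.7% of the 42 with a ratio) were higher than in the 47 Ooep-0 cells, against 32.6% of all genes with over 3 counts on a side, at a median of 4.45% of the oocyte level. Without that cell 13 were higher, and the median was 0%. Of the 58, 15 had 0 counts in the Ooep-0 cells and could have a ratio only through the carriers.

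**Figure D3:**
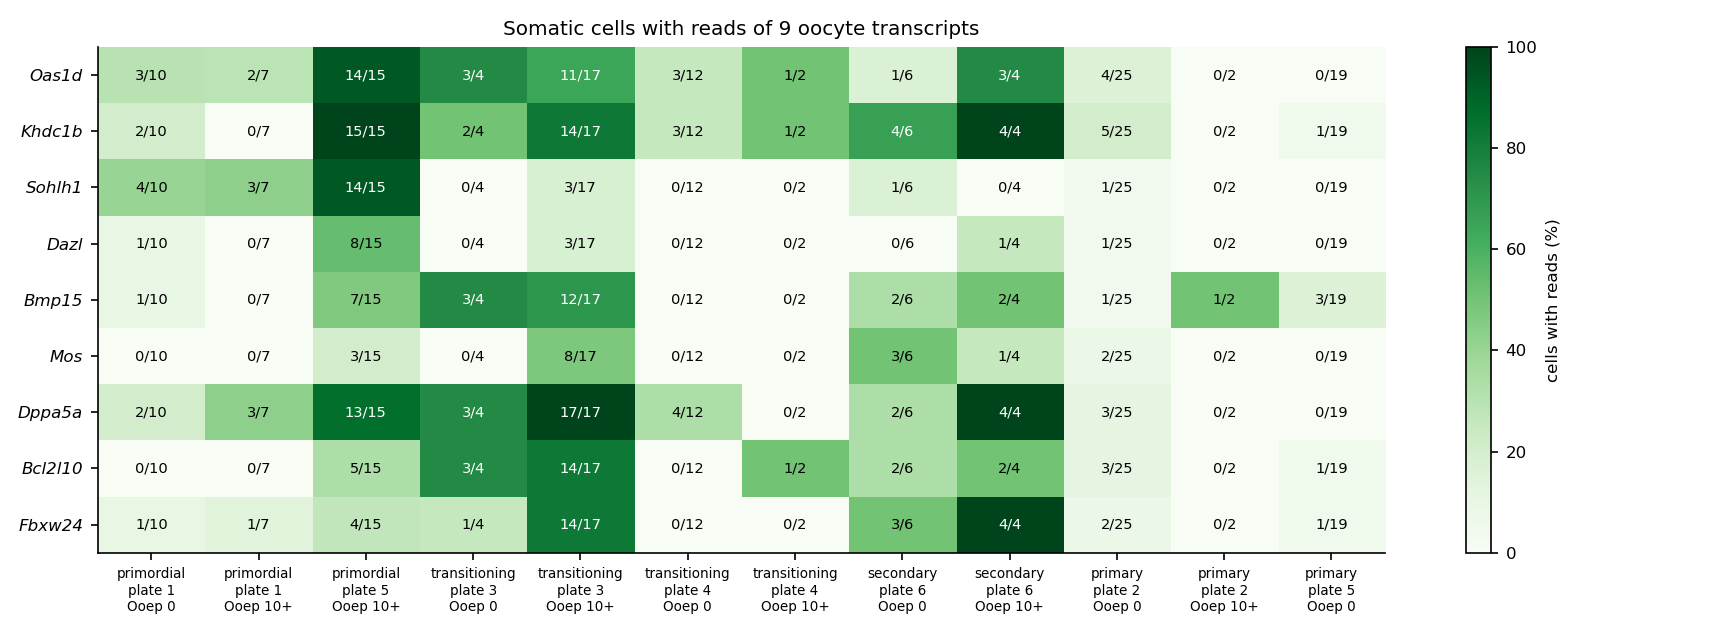
Number of somatic cells with reads of 9 oocyte transcripts (rows), as cells with reads over cells in the group, in Ooep-0 cells (Ooep 0) and carriers (Ooep 10+) by stage and plate; the shade is the percent of cells with reads. Sohlh1 had reads in 14 of 15 carriers of primordial plate 5 and 3 of 17 of transitioning plate 3, and Fbxw24 in 4 of 15 and 14 of 17.

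Pooled within stage, enriched transcripts were higher in carriers for 25 of 61 at the primordial stage (41%, against 31.8% of all genes with over 3 counts on a side) and 61 of 72 at the transitioning stage (84.7%, against 36.9%). They were higher for 36 of 58 at the primary (62.1%, against 32.6%) and 40 of 66 at the secondary stage (60.6%, against 28.6%). Of the members 60, 67, 42 and 50 had a ratio, and 41.7%, 91%, 85.7% and 80% of these were higher, while 9, 2, 1 and 3 were lower. In Ooep-0 cells 26, 23, 15 and 21 members had 0 counts. Such members could have a ratio only through the carriers, so these shares lean to the higher side. On the filter for low values 24, 29, 22 and 25 members passed. Over all members, whether they passed or not, the medians were 3.13%, 12.7%, 4.45% and 5.20% of the oocyte level, against 0.560%, 1.04%, 0.228% and 0.780% in Ooep-0 cells. With gene-named transcripts alone, 20 of 38, 40 of 50, 17 of 39 and 22 of 47 were higher, at medians of 3.09%, 11.8%, 0.589% and 3.90%. The transitioning stage had the largest share of higher transcripts under both counts. There 17 of 23 carriers were on plate 3 and 12 of 20 Ooep-0 cells on plate 4, so stage and plate cannot be told apart in that ranking. Within plates, of the transcripts with a ratio, 76.1% were higher on transitioning plate 3, 60% on transitioning plate 1 and 73.9% on secondary plate 6. At the secondary stage the median was 8.05% without a carrier of plate 5 that had 31 Ooep counts and a share of 0.0316%. All percents of the oocyte level depend on the scaling, and with TMM factors the 4 medians were 1.57%, 5.63%, 1.27% and 2.32%.

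The ratio to the oocyte level was not the same for every transcript. On transitioning plate 3 clone-named transcripts had a median of 15%, quartiles of 12.5% and 17.4% and a range of 0% to 110.4%, and gene-named ones had quartiles of 6.87% and 27.6% and a range of 0% to 75.9%. On secondary plate 6 the clone-named quartiles were 9.69% and 13.2% around a median of 11.7%, with the highest at 19.3%, and the gene-named quartiles 0% and 26.2%, with the highest at 107.6%. Ooep itself stood at 6.38% on transitioning plate 3, under the clone-named quartiles, and at 21.9% on secondary plate 6, above them. In the pooled stages, the interval of a transcript's own ratio covered the median of its set for 14 of 61, 10 of 72, 16 of 58 and 28 of 66 transcripts. These intervals cover counting error only, and reads carry no molecular identifiers.

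**Figure D4:**
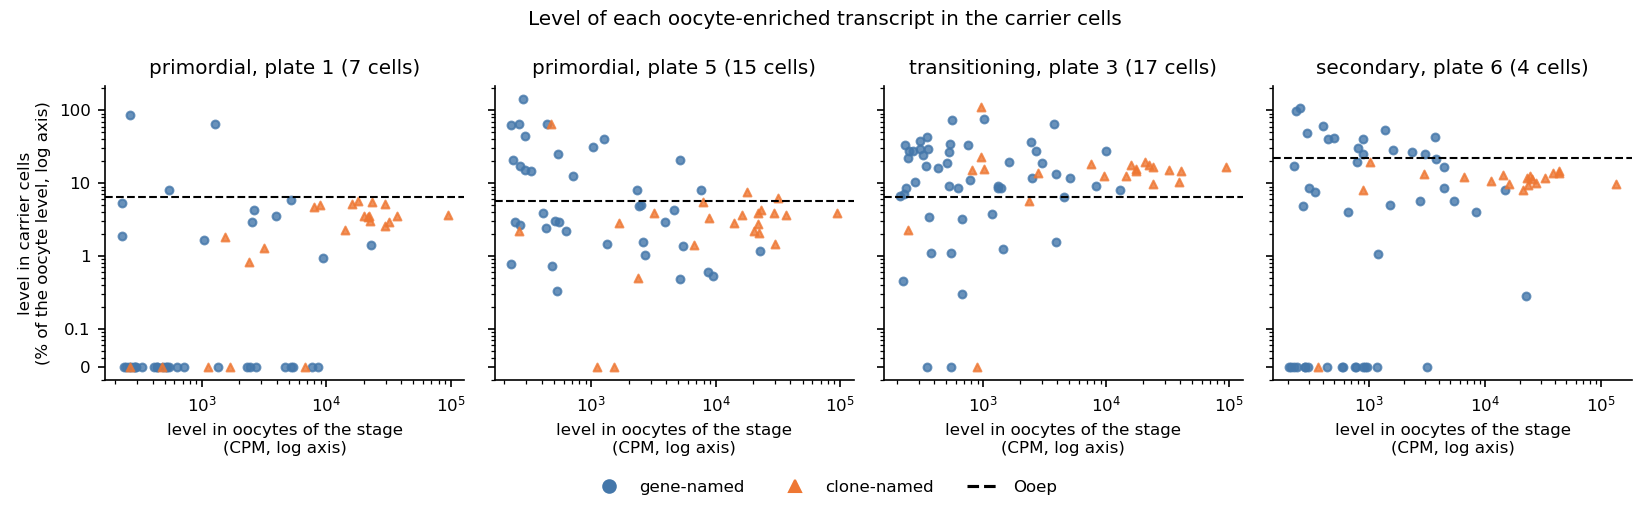
Each point is 1 oocyte-enriched transcript, with its level in oocytes of the stage (CPM, log axis) against its pooled level in carriers as a percent of that level (log axis, 0 drawn at the bottom), for 4 stage and plate groups; the dashed line is Ooep. Clone-named transcripts (orange) had medians of 15% on transitioning plate 3 and 11.7% on secondary plate 6, with closer quartiles than the gene-named ones (blue).

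The transcripts at the extremes of that ratio changed with stage. At the primordial stage Sohlh2 (100%) and Sohlh1 (47.3%) were among the 5 highest, with Plcg2, Crabp1 and the clone-named RP23-324A4.2, and Mos, Bcl2l10, Slc25a48, Tsga10ip and AC132444.1 were the 5 lowest. At the transitioning stage the highest were RP24-423N7.1 (82.7%), Fbxw26 (64.1%), Fbxw24 (55.2%), Patl2 (50.3%) and Bcl2l10 (34.7%). Sohlh2 and RP23-324A4.2 were then at 0%, among the lowest with Ovol1, Apba1 and R3hdml. So Bcl2l10 passed from the lowest to the highest and Sohlh2 from the highest to the lowest between these 2 groups of carriers, which also came from different plates. At the secondary stage Tuba3a (51.4%), Erich5 (47.5%), Slc6a7, Trim60 and Tbx4 were highest, and Erich5, Slc6a7 and Tbx4 each rested on 1 cell. At the primary stage Snai3, Fam151a, Slc25a31, AC123873.3 and RP24-423N7.1 were highest, and at least 98.6% of the counts of each came from 1 cell. The lowest were at 0% in both, Fstl4, Naa11, Ina, Kcnk18 and Ovol1 at the primary and Tex19.2, Txndc2, Ina, Snai3 and Stk32b at the secondary stage.

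Within a plate, carriers richer in Ooep were in most cases richer in the rest. Over the 17 carriers of transitioning plate 3, Spearman's rho between Ooep CPM and the summed level of gene-named enriched transcripts was 0.637, and it was 0.600 for clone-named ones. Over the 15 carriers of primordial plate 5 the values were 0.818 and 0.604, and over the 7 of primordial plate 1 0.321 and 0.714. These cells share plates and each pair of measures shares a total, so the values are a description.

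Groups of oocyte genes were thinly covered, because few of their members are listed on every plate. Of all genes with over 3 counts on a side, 31.8%, 36.9%, 32.6% and 28.6% were higher in carriers at the primordial, transitioning, primary and secondary stage, and 33.9%, 27.8%, 26.5% and 28.1% were lower. Of the Oas1 and Khdc1 family 4 of 7 members could be followed, and 4, 4, 2 and 2 of them were higher in order of stage and 0, 0, 1 and 0 lower. Of the early oocyte transcription factors 5 of 11 were listed, with 2, 2, 1 and 1 higher and 1 lower at each stage. Of the RNA storage and translation genes 4 of 13 were listed, with 1, 3, 1 and 1 higher and 1, 0, 0 and 1 lower. Bmp15 was the single listed growth factor or egg coat gene of 12, higher at the first 3 stages and lower at the secondary stage (log2 ratio -1.47, -3.15 to -0.15). Oog3, the 1 listed oogenesin or homeobox gene of 7, was higher at all stages but the primary, where it had no ratio. Of the study's own oocyte module, which the authors used to filter these cells, 5 of 19 genes were listed and 4, 4, 3 and 3 had a ratio, of which 3, 3, 2 and 0 were higher and 1, 1, 0 and 2 lower. No gene of the subcortical maternal complex other than Ooep, the NLRP family, the DNA methylation machinery or the meiotic prophase and cohesin list was listed on every plate.

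Within plates more members of those lists could be followed. On transitioning plate 3, where 38.2% of all genes of the plate were higher, carriers were higher for 3 of 3 maternal complex genes with a ratio, 3 of 5 NLRP genes, 3 of 3 oogenesin and homeobox genes, 1 of 2 methylation genes and 0 of 2 meiotic genes. On primordial plate 1, where 30.4% of all genes of the plate were higher, they were higher for 0 of 2 maternal complex genes, 0 of 1 NLRP genes, 1 of 4 methylation genes and 1 of 5 meiotic genes. On transitioning plate 1, where 48.7% of all genes of the plate were higher, 0 of 4 maternal complex genes were higher and 2 lower. NLRP genes were higher there for 1 of 1, methylation genes for 4 of 4 and meiotic genes for 2 of 2. On secondary plate 6, where 28.8% of all genes of the plate were higher, only 1 NLRP and 1 oogenesin gene had a ratio, both higher.

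The genes with the largest ratios were mostly not oocyte transcripts at the primordial stage. Of 576 genes compared there, 19.6% were higher and 36.5% lower in carriers, and the 10 largest ratios were those of Appbp2, Gm10184, AC131992.1, Nudt4, Fbxo38, Pacs1, Pard6g, Ofd1, Tm9sf3 and Ccny, none of which was oocyte-enriched. The split depended on the scaling, and with TMM factors 32.9% were higher and 14.4% lower. Appbp2, which binds a membrane protein tail, had reads in 17 of 22 carriers and 1 of 10 Ooep-0 cells (743 against 4.31 CPM). At the transitioning stage 21.1% of 716 genes were higher and 11% lower, and the top 10 held Fbxw24, Dppa5a, Bcl2l10, Fbxw18 and RP24-423N7.1 beside Gng3, Hspa1a, Rps27rt, RP23-369M17.1 and 1 further clone-named transcript. Hspa1a, a heat shock gene, was at 1490 against 127.8 CPM and was nearly absent from oocytes.

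At the primary stage 29.2% of 1010 genes were higher and 10.1% lower (22.7% and 16% with TMM factors), led by RP24-73O16.3, Bmp15, Rbp3, RP23-71J17.1, Olfr713, AC125149.3, Tubb4a, Chgb, Rab33a and RP24-406I15.5. At the secondary stage 21.5% of 908 genes were higher and 20.3% lower, led by RP23-442J18.3, Zfp119a, AC132444.1, Fmn1, RP23-78P7.2, Txk, Fbxw26, AC168977.1, Hist1h2bf and Fbxw18. Several of these rested on single cells, Bmp15 at the primary stage with 97.3% of its carrier counts from 1 cell.

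Markers of other cells moved with carrier status in part. At the primordial stage 5 of 5 stroma genes with a ratio were higher in carriers, and the summed stroma share was 0% to 3.79% with a median of 0.0113%, so the signal sat in few cells. On plate 1 alone 8 of 8 were higher. Stroma genes were lower in carriers at the primary (5 of 5) and secondary stage (4 of 4), and 1 was higher and 1 lower at the transitioning stage. Of the study's somatic module 1, 1, 1 and 0 of 7 genes with a ratio were higher and 2, 2, 0 and 1 lower. Of 7 listed endothelium, blood and immune genes 3, 0, 2 and 2 had a ratio, and 0, 0, 0 and 2 were higher and 2, 0, 0 and 0 lower, while their summed share reached 0.187% in any carrier at most. The part of these cells in the results was not tested.

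Immediate early genes, which respond to handling and signalling, were lower for 3 of 3 in primordial carriers, but for 1 of 3 with TMM factors and 2 of 6 on plate 1 alone, and for 0 of 3 at the other stages. Mitochondrially encoded genes were lower for 6 of 13 in primordial carriers (4 with TMM factors), 0 of 13 in transitioning, 2 of 13 in primary and 4 of 11 in secondary carriers, where 33.9%, 27.8%, 26.5% and 28.1% of all genes were. By the authors' values, mitochondrial reads had median shares of 2.55% in primordial carriers and 6.15% in Ooep-0 cells (6.18% and 6.15% on plate 1 alone), and of 5.27% and 2.60% at the transitioning stage. Within transitioning plates the shares were 6.71% and 10.2% on plate 3 and 5.53% and 19.4% on plate 1. On plate 4, with 2 carriers, they were 2.71% and 1.41%. Of 11 mitochondrially encoded genes with a ratio on transitioning plate 1, 6 were lower, with a median log2 ratio of -1.07 beside 0.88 over all genes. Their part in the results was not tested.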

How the data were processed

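Single follicle cells were profiled by SMART-Seq2, with reads placed on GRCm38 by the authors, who deposited 1 table of estimated counts per gene and cell (23.6% of the values are not whole) and a table of per-cell quality values. Per the deposited cell table, the authors also gave reads and genes per cell as signal values, quality measures as a fraction of a cell's reads, end bias of coverage as a ratio, and module score columns, all used here as medians only. The submitters' processing notes name Seurat 4, GRCm38 and mm10. The authors kept cells with at least 500 genes and dropped somatic cells over 2 SD for an oocyte module. Values are blank for a gene on plates where it is not listed.

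Of 25149 rows, 27 named by calendar dates were dropped (0.0743% of counts), and 13266 genes listed on every plate gave the totals. The cells of a class were added up and scaled to CPM. A gene was compared where 1 side reached 50 CPM and 50% of that side's cells had reads, and was called at a log2 ratio of 1 or more, or -1 or less. A side with 0 counts was set at 3 counts over the group. Ratios carry 95% intervals from the binomial split of the counts. The table gives no animal or collection, so no test was run, no p-value is given, and the limits are those of 1 sample a side. Per-cell detection was repeated after thinning counts, rounded to whole numbers, to 12000. No doublet caller was run. Cells were grouped by their labels for type and stage and by Ooep count for class. The carriers, the transcript lists and the lists of genes were chosen with earlier results of these data known.

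Named genes were Oas1d, Khdc1b and Sohlh1, the members of 10 oocyte gene lists with values on every plate, the 10 highest log2 ratios of each stage, the 5 enriched transcripts highest and the 5 lowest relative to oocytes, and members of 5 further lists used to check the cells. Genes outside that rule are said to have been looked at after values were seen. Alternatives were other scalings (TMM from edgeR 4.0.16, size factors from DESeq2 1.42.0, R 4.3.3), no filter, other folds of enrichment, thinned cells, means of single cells, single plates and each cell left out in turn. The scripts were tested on simulated data and used Python 3.11.15, numpy 2.4.6, pandas 2.3.3, scipy 1.17.1 and matplotlib 3.10.9.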

Additional observations from a re-analysis of the deposited data

Results flagged for a closer look

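In 6 groups of 4 to 10 cells, single cells were compared with the rest of their group, and chance alone flags about 1 in 20 groups. Among the 10 primordial Ooep-0 cells, 1 had 4.55% of its counts on oocyte-enriched transcripts where the others had 0.401% to 1.97%. Among the 4 primary carriers, 1 stood apart by that share, at 9.77% where the others had 0.168% to 0.719%.

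Cells with 1 to 9 Ooep counts entered no comparison, and in 3 stages their median share of counts on oocyte-enriched transcripts was above that of the Ooep-0 cells. It was 0.838% in 4 transitioning cells against 0.592%, 0.383% in 5 primary cells against 0.286%, and 0.894% in 14 secondary cells against 0.372%. Within each transitioning plate it was below that of the Ooep-0 cells. It was 1.62% against 2.71% on plate 1, 1.45% against 1.57% on plate 3 and 0.197% against 0.327% on plate 4.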

How the results depend on the processing

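Of 522 recomputed counts, medians and shares, 28 moved and 494 stayed within 1.5 times the count or 1 SD between cells. Most of the 522 left out 1 cell, which changes a pool of many cells little. The medians relative to oocytes were set against the SD between carriers of their summed level, not against a spread of the median. The 494 therefore say little about the other alternatives, which are given below. Of 711 ratios of single transcripts, 6 changed sign after a call at a log2 ratio of 1 or more, or -1 or less. A further 22.6% moved beyond their interval and 76.5% did not. Sign changes of ratios that were not called fall within those shares, as for Oas1d and Dppa3 on primordial plate 1 and Zar1 on transitioning plate 3. The causes were not tested.

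Of the genes compared, 32.9% were higher in primordial carriers with TMM factors and 31.8% with DESeq2 size factors, which shifted log2 ratios there by 0.84 and 0.79. The shift was -0.36 and -0.32 at the primary, -0.13 and -0.10 at the secondary and -0.04 and -0.03 at the transitioning stage. Without a minimum level 1197 genes (31.8%), 1754 (36.9%), 1409 (32.6%) and 993 (28.6%) were higher in order of stage, since more genes were compared. On single plates it was 13.4% of 387 (primordial plate 1), 49.7% of 595 and 26.5% of 969 (transitioning plates 1 and 3) and 31.5% of 1091 genes (secondary plate 6).

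The number of enriched transcripts higher was 6 on primordial plate 1 and 21 on transitioning plate 1. It was 12, 27, 5 and 14 with sets at 200 times, and 55 with the primary set at 10 times. With clone-named transcripts left out, an alternative chosen after seeing the data, it was 40 (transitioning), 17 (primary) and 22 (secondary). The primordial median relative to oocytes was 7.19% from means of single-cell CPM and 7.27% after thinning. The carriers' median share was 0.722% (primordial) and 0.940% (secondary) without clone-named transcripts, 1.23% on primordial plate 1 and 0.934% with all genes listed there, and that of Ooep-0 cells was 2.11% on secondary plate 6. Leaving out cells whose stage labels conflict, also chosen after seeing the data, moved no count or median.

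On primordial plate 1 the log2 ratios of Oas1d and Khdc1b turned to -0.12 and -1.23, and on transitioning plate 1 that of Bmp15 turned to -0.31. With 1 cell of either class left out at a time (Ooep-0 cells and single plates chosen after seeing the data), the genes higher ranged over 17.2% to 22.4%, 18.9% to 23.4%, 26.1% to 30.3% and 20.4% to 23.6% in order of stage, the enriched transcripts higher over 23 to 26, 59 to 63, 13 to 38 and 36 to 42, and the medians over 2.90% to 3.91%, 10.9% to 13.6%, 0% to 6.31% and 3.83% to 8.05%. On primordial plate 1 log2 ratios then ranged over -0.71 to 3.59 for Sohlh1, -4.77 to 0.62 for Oas1c and -4.30 to 2.86 for Nlrp14. Where fewer than 3 cells remained, thresholds of 30 counts or of 100 CPM in cells of at least 30000 counts, and single plates, were not run. No paired analysis was possible because the results come from no test and the replicate numbers only name cells.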
